A study of Mus musculus with 6 samples.

Results

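The HSP70 and HSP90 chaperones described here are 10 genes of the 23229 annotated genes in the count tables, taken by symbol: 3 HSP70-family genes known for expression in the testis (Hspa1l, Hspa2, Hspa4l), 5 other HSP70-family genes (Hspa1a, Hspa1b, Hspa4, Hspa8, Hspa9) and the 2 cytosolic HSP90 genes (Hsp90aa1, Hsp90ab1). All 10 had counts and RPKM values in every library and all 10 passed the filter on low counts. The study sequenced RNA of purified mouse sperm nuclei and of whole mouse sperm. Both groups came from adult mice of the transgenic C57BL/6 line HP3.1, aged 4 months, with sperm taken from the cauda epididymides and vas deferens of individual animals. Nuclei were freed by sonication and spun through sucrose and caesium chloride with the detergent Triton, whereas whole sperm went to extraction without those steps. The libraries were 2 of nuclei and 1 of whole sperm, each sequenced in 2 runs that share 1 column, and which animal gave which preparation is not stated in the labels. The transgene itself is not described in the labels, and both groups carry it.

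HSP70 proteins bind exposed hydrophobic stretches of unfolded proteins and release them in a cycle of ATP binding and hydrolysis. J-domain proteins start the hydrolysis, and nucleotide exchange factors, among them the HSP110 proteins Hspa4 and Hspa4l, reset the cycle. HSP90 takes over partly folded clients with the help of its own co-chaperones. Male germ cells are known for expressing HSP70 genes of their own during meiosis and in spermatids, at stages before transcription stops in the condensing nucleus, and mature sperm hold RNA that remained from those stages.

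The count tables held 5487306 reads for nuclei 1, 6648848 for nuclei 2 and 8316345 for the whole-sperm preparation. The 17 sperm markers examined all had counts in each library and summed to 6246 and 6038 CPM (counts scaled to a common library total after TMM normalisation) in nuclei 1 and 2, against 3439 CPM in whole sperm. Epididymal markers, 18 genes of which 12 and 10 had counts in nuclei and 11 in whole sperm, summed to 2898 and 2976 CPM in nuclei against 17491 CPM in whole sperm. Of these, Lcn5, Lcn8, Lcn10, Ly6g5b and Rnase10 had 0 counts in every library, and Gpx5 had 88 counts in whole sperm alone. The 15 epithelial markers summed to 190 and 222 CPM in nuclei against 745 CPM in whole sperm. Leukocyte markers summed to 41.0 and 12.9 CPM in nuclei against 63.6 CPM in whole sperm, and muscle and stromal markers to 173 and 99.5 CPM in nuclei against 156 CPM in whole sperm. Of the 10 Sertoli and Leydig cell markers 7 had 0 counts in every library, and Cyp17a1 had 1 count in nuclei 1 alone. Sox9 had 144 and 24 counts in nuclei against 11 in whole sperm, and Wt1 had 0 and 23 against 175. The list summed to 27.7 and 7.05 CPM in nuclei against 21.5 CPM in whole sperm. Of 7 listed erythrocyte genes, the 5 in the count tables held 0 and 4 counts in nuclei against 3 in whole sperm. By RPKM the erythrocyte list summed to 1.56 and 0.0890 in nuclei against 38.5 in whole sperm. The low counts therefore do not show that such RNA was absent.

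Hspa1l and Hspa1a lie head to head on chromosome 17, and the stretch between their starts carried reads of its own, so the promoter windows of this pair are shown first. In GENCODE vM21 Hspa1l spans chr17:34972703-34979285 on the plus strand and Hspa1a chr17:34969190-34972156 on the minus strand (mm10). The start of Hspa1l is 547 bases from the start of Hspa1a. A transcribed region that the authors assembled outside annotated genes, TCONS_00018258, fills 362 bases of that gap at chr17:34972290-34972651 (mm10, counted here as 1-based, which the authors' list does not state). It ends 52 bases before Hspa1l and begins 134 bases from Hspa1a. The RefSeq windows (GRCm38.p6, the assembly of mm10) run from 250 bases before to 50 bases after each start. Capitals in the first and second windows mark bases inside the assembled region. Capitals in the third, which belongs to the Hspa1a copy Hspa1b, mark the 4 bases at which it differs from Hspa1a.
Hspa1l, chr17:34972453-34972752, plus strand: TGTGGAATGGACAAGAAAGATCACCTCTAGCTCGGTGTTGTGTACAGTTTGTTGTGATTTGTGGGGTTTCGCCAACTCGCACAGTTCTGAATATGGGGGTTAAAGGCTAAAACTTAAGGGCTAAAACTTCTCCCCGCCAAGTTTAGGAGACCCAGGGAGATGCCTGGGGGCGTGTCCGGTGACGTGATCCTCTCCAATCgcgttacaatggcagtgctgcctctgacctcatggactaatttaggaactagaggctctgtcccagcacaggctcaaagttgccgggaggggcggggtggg
Hspa1a, chr17:34972107-34972406, minus strand: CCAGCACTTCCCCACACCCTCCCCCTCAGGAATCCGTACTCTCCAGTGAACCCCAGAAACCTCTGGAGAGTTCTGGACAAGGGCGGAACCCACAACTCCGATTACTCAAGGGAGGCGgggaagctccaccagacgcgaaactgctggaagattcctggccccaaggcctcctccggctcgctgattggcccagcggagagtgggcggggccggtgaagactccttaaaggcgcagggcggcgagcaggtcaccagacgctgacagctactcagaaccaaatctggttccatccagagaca
Hspa1b, chr17:34959189-34959488, minus strand: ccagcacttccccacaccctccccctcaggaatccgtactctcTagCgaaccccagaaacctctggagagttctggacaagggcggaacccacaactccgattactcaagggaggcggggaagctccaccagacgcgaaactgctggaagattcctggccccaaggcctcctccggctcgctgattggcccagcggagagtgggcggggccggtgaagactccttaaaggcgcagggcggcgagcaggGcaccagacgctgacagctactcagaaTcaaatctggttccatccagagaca
The region covers 199 of the 300 bases of the Hspa1l window and 117 of the 300 bases of the Hspa1a window. The Hspa1a and Hspa1b windows share 296 of 300 bases (98.7%). Both hold 1 copy of GAANNTTC, a pair of facing units of the heat shock element, beginning 104 bases before the start. The motif was searched on both strands (it reads the same on each), and 7.86% of 32851 mouse promoter windows of this length hold it. The facing-away arrangement TTCNNGAA, held by 8.52% of windows, was in none of the 6 member windows in the table. GAANNTTC was in neither the Hspa1l window nor those of Hspa2, Hspa4l and Hspa4. Windows of Hspa8, Hspa9, Hsp90aa1 and Hsp90ab1 were not used here.

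Across the 10 members, no gene passed the edgeR quasi-likelihood test with Benjamini-Hochberg adjustment over all features (adjusted p under 0.05) in either direction. The same test called 4 of 14397 annotated genes higher in nuclei (0.0278%) and 16 lower (0.111%), so the members' 0 of 10 is set against a test that called few genes of any kind. Hspa8 alone had an unadjusted p under 0.05, which was found for 783 of the 14397 genes. DESeq2 called none of the 8 members to which it gave an adjusted p. Of all 7443 genes to which it gave one, it called 148 (108 higher, 40 lower). In TMM-normalised CPM, both nuclei libraries stood above whole sperm for 2 members (Hspa1l, Hspa2), against 26.1% of all genes tested. Both nuclei libraries stood below whole sperm for 6 members (Hspa4l, Hspa1b, Hspa4, Hspa8, Hspa9, Hsp90aa1), against 41.2% of all genes tested. The median log2 fold change was -0.36 over the 10 members and -0.04 over all genes tested.

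**Figure D1:**
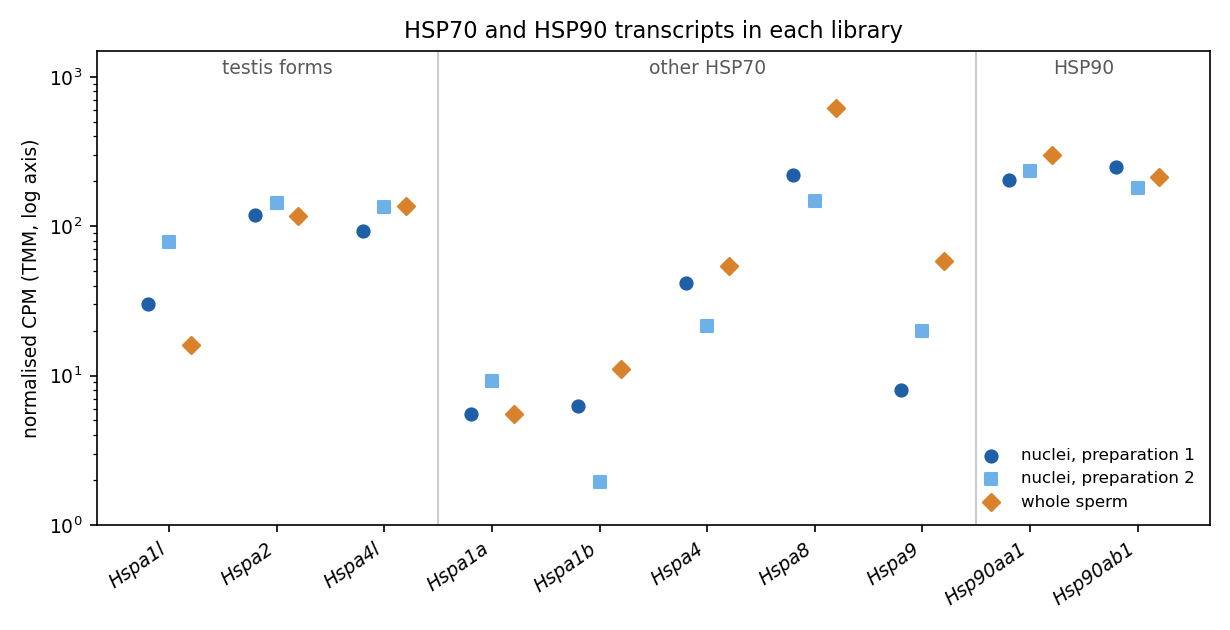
TMM-normalised CPM (log axis) of the 10 members in the 2 nuclei libraries and the whole-sperm library, 1 point per library. Hspa8 stands at 222 and 148 CPM in nuclei against 618 CPM in whole sperm, while Hspa1l stands at 30.0 and 78.4 CPM in nuclei against 16.1 CPM in whole sperm.

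The testis forms differed among themselves. Hspa1l, an HSP70 made in spermatids, had 157 and 523 counts in nuclei 1 and 2 (30.0 and 78.4 CPM), against 139 counts in whole sperm (16.1 CPM). Both nuclei libraries were above whole sperm, and the nuclei libraries themselves were 2.62-fold apart. Its mean was 54.2 ± 34.3 CPM in nuclei (SD, n = 2), 3.38-fold the whole-sperm level (log2 1.75, SE 1.20, edgeR adjusted p = 0.909). Of all genes tested, 22.9% had a higher log2 fold change than Hspa1l. Per length, Hspa1l had 3.02 and 13.0 RPKM in nuclei against 3.14 RPKM in whole sperm, so on that scale nuclei 1 was not above whole sperm. The deposited RPKM values place nuclei lower as a whole: over the 14145 genes in both fits the median log2 difference was -0.94 on the RPKM scale and -0.06 on the count scale. Hspa1l was at 0.98 on the log2(RPKM + 0.1) scale (limma adjusted p = 0.746).

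Hspa2, the HSP70 that meiotic spermatocytes need in mice and that marks male germ cells, lies at chr12:76404176-76406938 (mm10, plus strand). It had 625 and 951 counts in nuclei (119 and 143 CPM), against 1007 counts in whole sperm (116 CPM). The 3 libraries lay close together, and nuclei 1 exceeded whole sperm by less than the gap between the nuclei libraries. The nuclei mean was 131 ± 16.5 CPM (SD, n = 2; log2 0.17, SE 0.78, edgeR adjusted p = 1.00). Under spike-in scaling its log2 fold change was -1.27, and on the RPKM scale it was -0.50, neither called. The median of all genes tested was -1.48 under spike-in scaling, and that of the genes in both fits was -0.94 on RPKM. Hspa2 lay above both medians.

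Hspa4l, an HSP110 protein found at high level in the testis, lies at chr3:40744495-40796103 (mm10, plus strand). It had 485 and 895 counts in nuclei (92.6 and 134 CPM) and 1181 counts in whole sperm (136 CPM). Nuclei 2 and whole sperm were nearly level, and nuclei 1 was lower. The nuclei mean was 113 ± 29.4 CPM (SD, n = 2; log2 -0.27, SE 0.77, edgeR adjusted p = 1.00). Together the testis forms had a median log2 fold change of 0.17, with 2 above 0 and 1 below, beside -0.78 for the 7 other members, with 2 above 0 and 5 below.

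The assembled region beside Hspa1l showed the same order of libraries as Hspa1l by counts and CPM, with nuclei 2 highest and whole sperm lowest. TCONS_00018258 had 212 and 620 counts in nuclei 1 and 2 (40.5 and 92.9 CPM), against 84 counts in whole sperm (9.70 CPM). Its nuclei mean was 66.7 ± 37.1 CPM (SD, n = 2), 6.88-fold the whole-sperm level (log2 2.78, SE 1.19, edgeR adjusted p = 0.613). Among the 2323 assembled regions tested, 65.3% had a higher log2 fold change, so this value was not high for such a region. The region held 1.35 and 1.19 counts per Hspa1l count in nuclei 1 and 2 (95% exact intervals 1.09 to 1.67 and 1.05 to 1.33) and 0.604 in whole sperm (0.455 to 0.798). On its other side Hspa1a held far fewer reads, and the region had 7.31 and 10.2 counts per Hspa1a count in nuclei against 1.75 in whole sperm. Per length the region stood at 32.3 and 99.4 RPKM in nuclei against 10.6 RPKM in whole sperm, so there nuclei 1 was above whole sperm for the region but not for Hspa1l. The strand of its reads is not given in the sources used here.

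**Figure D2:**
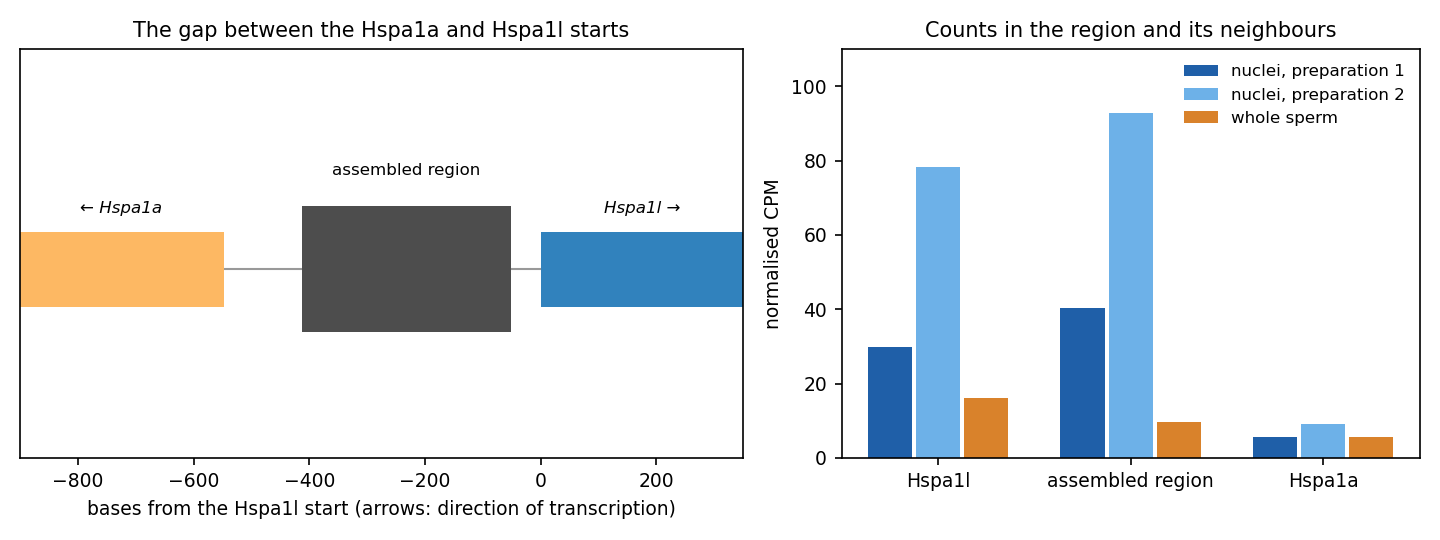
Left, the gap between the starts of Hspa1a and Hspa1l with the assembled region, drawn to scale in bases from the Hspa1l start. Right, TMM-normalised CPM of Hspa1l, the region and Hspa1a in each library, where Hspa1a stays at 5.53 and 9.14 CPM in nuclei against 5.54 CPM in whole sperm.

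Hspa1a and Hspa1b, the stress-inducible HSP70 pair, were the least abundant members per length in every library. Hspa1a had 29 and 61 counts in nuclei (5.53 and 9.14 CPM) and 48 counts in whole sperm (5.54 CPM), so nuclei 1 was level with whole sperm and nuclei 2 above it. Hspa1b had 33 and 13 counts in nuclei (6.30 and 1.95 CPM) and 96 counts in whole sperm (11.1 CPM), so both nuclei libraries were below whole sperm. Neither difference was called (Hspa1a log2 0.40, SE 3.83; Hspa1b log2 -1.42, SE 3.74; edgeR adjusted p = 1.00 and 0.999). The split between the copies is uncertain, because 58.8% of the 50-base stretches of the Hspa1a transcript are also in Hspa1b and 62.3% of those of Hspa1b are in Hspa1a.

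Hspa8, the constitutive cytosolic HSP70 of most cells, was the member with the largest whole-sperm level, in CPM and per length. It lies at chr9:40800984-40810087 (mm10, plus strand), and 3 small nucleolar RNA genes of the Snord14 group sit within it. Hspa8 had 1164 and 984 counts in nuclei (222 and 148 CPM), against 5353 counts in whole sperm (618 CPM). Both nuclei libraries were far below whole sperm and were 1.51-fold apart. The nuclei mean was 185 ± 52.8 CPM (SD, n = 2), and the whole-sperm level was 3.35-fold that (log2 -1.74, SE 0.70, unadjusted p = 0.0131, edgeR adjusted p = 0.543). Of all genes tested, 23.4% had a lower log2 fold change. Under spike-in scaling, which called 527 of 14397 genes lower (3.66%), Hspa8 was called lower in nuclei (log2 -3.17, adjusted p = 0.000409), the only member called under any setting tried; under that scaling the median of all genes tested was -1.48. That scaling rests on the spike-ins shared by every library. These held only 364403 of the 2.57e+06 spike-in counts of whole sperm, but all of the 589074 and 768443 in nuclei 1 and 2. A scaling on all spike-in counts was not tested, so this call depends on that choice of spike-ins. By DESeq2 the adjusted p of Hspa8 was 0.126. The epididymal markers were lower in nuclei in the same libraries, at 2898 and 2976 CPM in nuclei against 17491 CPM in whole sperm, and their part in the Hspa8 difference was not tested. In these bulk libraries fewer cells of a type and less RNA per cell cannot be told apart.

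Hspa9, the mitochondrial HSP70, had 42 and 132 counts in nuclei (8.01 and 19.8 CPM) and 510 counts in whole sperm (58.9 CPM). Both nuclei libraries were below whole sperm, but they were also 2.47-fold apart. The nuclei mean was 13.9 ± 8.32 CPM (SD, n = 2), and the whole-sperm level was 4.24-fold that (log2 -2.08, SE 1.30, edgeR adjusted p = 0.909). Hspa4, the widely expressed HSP110 relative of Hspa4l, had 217 and 143 counts in nuclei (41.4 and 21.4 CPM) and 468 counts in whole sperm (54.1 CPM). Both nuclei libraries were below whole sperm by amounts near the spread between them (log2 -0.78, SE 1.10, edgeR adjusted p = 0.944).

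Neither HSP90 gene was called. Hsp90aa1, the inducible HSP90 that germ cells also express, had 1074 and 1558 counts in nuclei (205 and 234 CPM) and 2606 counts in whole sperm (301 CPM). Its nuclei libraries were 1.14-fold apart, the smallest gap among the members, and both were below whole sperm (log2 -0.46, SE 0.72, edgeR adjusted p = 0.966). Hsp90ab1, the constitutive form, had 1313 and 1200 counts in nuclei (251 and 180 CPM) and 1861 counts in whole sperm (215 CPM). Whole sperm lay between the nuclei libraries (log2 0.0019, SE 0.74, edgeR adjusted p = 1.00), and the sign of this value changed between settings.

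**Figure D3:**
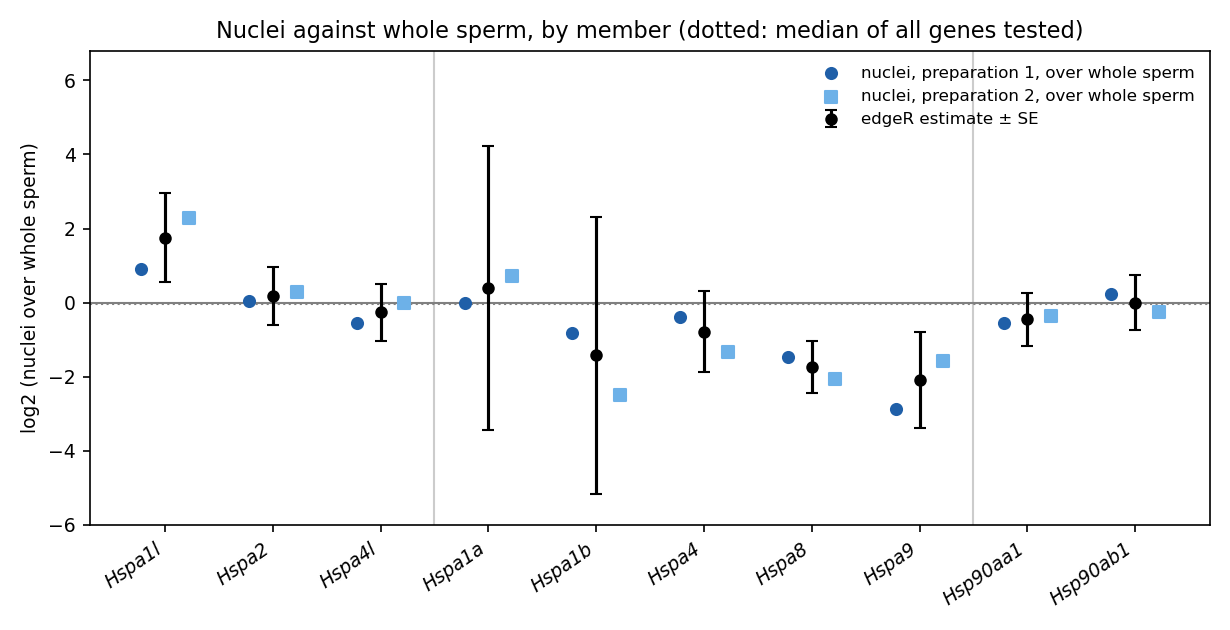
Log2 fold change of nuclei over whole sperm for each member. The edgeR estimate is in black with an SE derived from its F test, and each nuclei library alone is in colour. Hspa8 (-1.74) and Hspa9 (-2.08) lie lowest and Hspa1l (1.75) highest, and the dotted line is the median of all genes tested (-0.04).

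Compared per length within a library, the same 5 members led in every library, in different orders. In nuclei 1 the order by RPKM was Hspa8 (30.4), Hsp90ab1 (25.1), Hsp90aa1 (22.9), Hspa2 (12.0) and Hspa4l (9.05). In nuclei 2 it was Hsp90aa1 (37.2), Hsp90ab1 (29.8), Hspa8 (27.0), Hspa2 (19.0) and Hspa4l (16.7). In whole sperm Hspa8 led at 175 RPKM, followed by Hsp90aa1 (63.3), Hsp90ab1 (47.9), Hspa4l (23.8) and Hspa2 (21.4). Hspa8 ranked 657th and 1143rd in nuclei and 81st in whole sperm among 25607 rows of the RPKM table. The leading 3 in nuclei are not separable, since their order differed between the nuclei libraries, and neither are Hspa4l and Hspa2 in whole sperm, whose 1 library has no spread. The other 5 members had lower RPKM values than these 5 in every library, from 0.605 to 3.29 in nuclei 1, from 0.282 to 13.0 in nuclei 2 and from 0.745 to 11.6 in whole sperm.

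The testis forms took a larger part of the members' counts in nuclei. Hspa1l, Hspa2 and Hspa4l together made up 24.7% (95% exact interval 23.5 to 25.9) of the members' 5139 counts in nuclei 1 and 36.7% (35.5 to 37.9) of 6460 in nuclei 2, against 17.5% (16.9 to 18.2) of 13269 in whole sperm. Both nuclei shares were above the whole-sperm share, and they differed from each other by more than counting error. With Hspa8 left out, a choice made after seeing the data, the shares were 31.9% and 43.3% in nuclei and 29.4% in whole sperm, which leaves nuclei 1 (95% exact interval 30.4 to 33.3) only just above whole sperm (28.4 to 30.4). Hspa8 itself made up 22.7% and 15.2% of the members' counts in nuclei and 40.3% in whole sperm. All 10 members together were 0.0937% and 0.0972% of the nuclei libraries and 0.160% of the whole-sperm library. The shares were not tested between groups; with 2 libraries against 1, an exact permutation test cannot give a one-sided p below 0.333.

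Each testis form was also set against a relative among the other members, which for Hspa1l was the sparsely counted stress-inducible pair. Such a ratio within a library is changed by no scaling between libraries. The ratio of Hspa2 to Hspa8 counts was 0.537 (95% exact interval 0.486 to 0.592) in nuclei 1 and 0.966 (0.883 to 1.06) in nuclei 2, against 0.188 (0.176 to 0.201) in whole sperm. Hspa1l outnumbered Hspa1a and Hspa1b summed by 2.53 (1.88 to 3.46) in nuclei 1 and 7.07 (5.53 to 9.14) in nuclei 2, against a ratio of 0.965 (0.759 to 1.23) in whole sperm. In both pairs the nuclei intervals lay above that of whole sperm. The ratio of Hspa4l to Hspa4 was 2.24 (1.90 to 2.64) in nuclei 1 and 6.26 (5.24 to 7.52) in nuclei 2, against 2.52 (2.27 to 2.81) in whole sperm, so by counts the nuclei libraries stood on either side of whole sperm, and the intervals of nuclei 1 and whole sperm overlapped. By RPKM the Hspa4l to Hspa4 ratio was 2.75 and 5.50 in nuclei against 2.73 in whole sperm, which puts nuclei 1 level with whole sperm. The RPKM ratios gave the same order for Hspa2 to Hspa8, at 0.394 and 0.705 in nuclei against 0.122 in whole sperm. For Hspa1l to the inducible pair they were 2.46 and 9.03 in nuclei against 1.17 in whole sperm. Intervals cover counting error only.

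**Figure D4:**
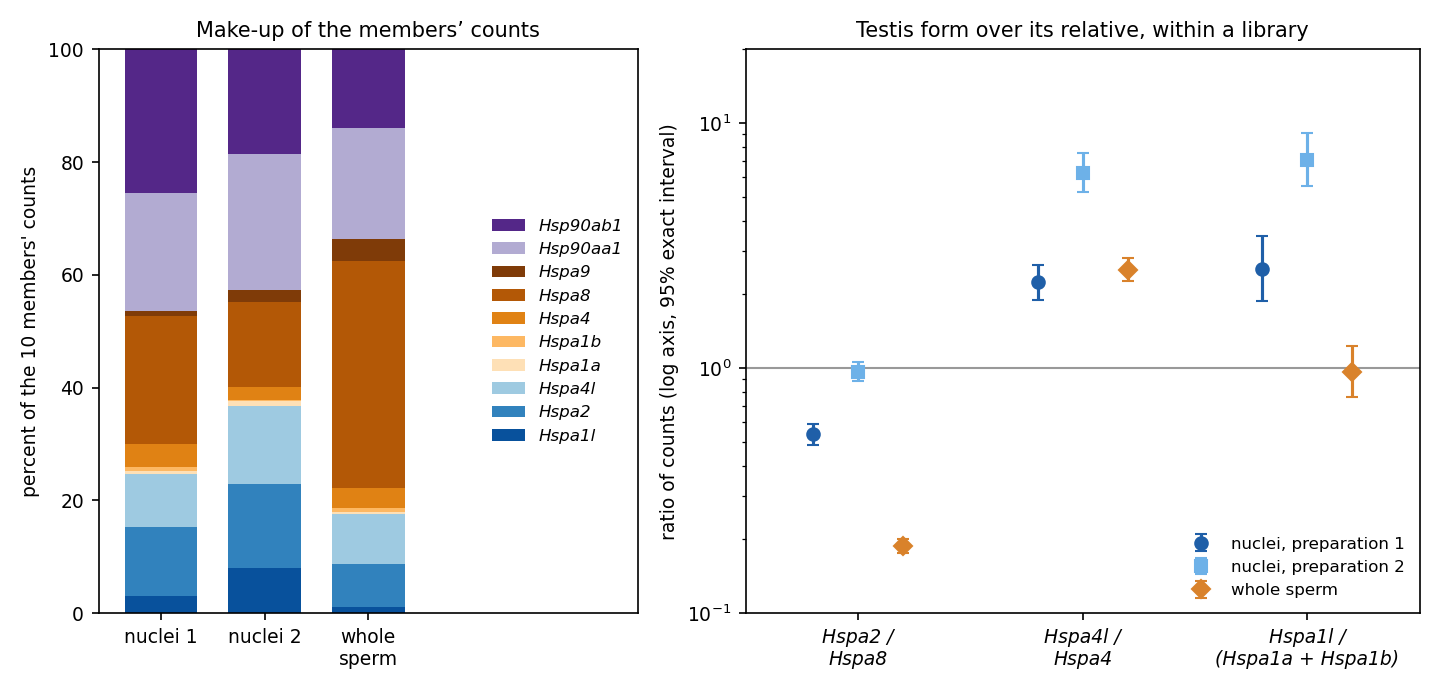
Left, the percent of the members' counts taken by each of the 10 genes in the 2 nuclei libraries and whole sperm, with testis forms in blue at the foot of each bar. Right, count ratios (log axis) of each testis form to its relative with 95% exact intervals, where the Hspa2 to Hspa8 ratio is 0.537 and 0.966 in nuclei against 0.188 in whole sperm.

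Sequence shared with other genes limits some of these counts. Of the 50-base stretches of a member's GENCODE transcript, 74.8% were also in another annotated gene for Hspa8, among them Gm15459, and 58.5% for Hsp90aa1, mainly Gm12346. For Hspa1l the share was 71.4%, since Gm10501 is annotated over it on the opposite strand, and without the strand setting the reads of these genes cannot be told apart. Hspa1a likewise overlaps Gm20481 on the opposite strand. Hspa2 and Hspa4 shared no such stretch, and the shares were 0.626% for Hspa4l, 4.10% for Hspa9 and 4.49% for Hsp90ab1. None of Gm15459, Gm12346, Gm10501 and Gm20481 has a row in the count tables.

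The authors' deposited table of adjusted whole-sperm values, in which the mean nuclei count is taken off the whole-sperm count, is computed from the same counts. In the authors' deposited table Hspa1l and the assembled region were at 0 and Hspa1a at 3. Hspa8 kept 4279 there (79.9% of its whole-sperm count) and Hspa9 kept 423 (82.9%). Hspa2 kept 219 (21.7%) and Hsp90ab1 605 (32.5%) in the authors' deposited table. The subtraction used counts not scaled for depth, and the whole-sperm library was the deepest (8316345 reads against 5487306 and 6648848 in nuclei). After TMM normalisation the log2 fold changes of Hspa2 and Hsp90ab1 were 0.17 and 0.0019. At that scaling the counts they kept are not an excess. Under library size alone Hspa2 was at 0.085 and Hsp90ab1 at -0.093. Under spike-in scaling they were at -1.27 and -1.43, and on RPKM at -0.50 and -0.81. Whether the kept counts are an excess therefore depends on the scaling.

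The partners of these chaperones were counted in 7 lists of 121 genes, of which 104 were tested. Dnajc10 was the only one called, lower in nuclei, against 0.111% of all genes tested; 57 had a log2 fold change below 0 and 47 above, with a median of -0.31. Beyond the 10 members, 9 further HSP70 and HSP90 genes were tested and none was called (4 above 0, 5 below, median -0.61). Hsp90b1, the HSP90 of the endoplasmic reticulum, had 448 and 1192 counts in nuclei (85.5 and 179 CPM) and 3695 counts in whole sperm (427 CPM; log2 -1.69, edgeR adjusted p = 0.601). Hspa5, the HSP70 of the same compartment, had 1043 and 544 counts in nuclei (199 and 81.6 CPM) and 2854 in whole sperm (330 CPM; log2 -1.23, edgeR adjusted p = 0.909). Both genes had nuclei libraries below whole sperm, as Hspa8 did. Trap1, the mitochondrial HSP90, ran the other way at 389 and 617 CPM in nuclei against 185 CPM in whole sperm (log2 fold change 1.45, edgeR adjusted p = 0.909), and Hyou1, an endoplasmic reticulum HSP110 relative, was at 145 and 183 CPM in nuclei against 109 CPM in whole sperm.

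Of the 48 J-domain genes 44 were tested, 20 above 0 and 24 below, with a median of -0.36 and 1 called. Dnajc10, a disulfide reductase of the endoplasmic reticulum with a J domain, had 136 and 131 counts in nuclei (26.0 and 19.6 CPM), against 2754 counts in whole sperm (318 CPM). Its nuclei libraries were 1.32-fold apart, and the whole-sperm level was 14.0-fold their mean (log2 -3.80, SE 0.77, edgeR adjusted p = 0.00203). The call was lost at a minimum mean of 10 CPM (edgeR adjusted p = 0.491) and on the RPKM scale (limma adjusted p = 0.229), with log2 values of -3.86 and -4.05. Among the 4 most abundant J-domain genes, Dnajb2 was at 489 and 726 CPM in nuclei against 156 CPM in whole sperm (log2 fold change 1.96, edgeR adjusted p = 0.581). Dnajb6 was at 258 and 223 CPM in nuclei against 163 CPM in whole sperm, Gak, the clathrin-uncoating partner of Hspa8, at 153 and 142 CPM in nuclei against 105 CPM in whole sperm, and Dnajc7 at 118 and 156 CPM in nuclei against 117 CPM in whole sperm. None of these 4 was called.

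Of 9 nucleotide exchange factors 8 were tested, 5 above 0 and 3 below (median 0.29), and none was called. Bag1 was at 153 and 98.8 CPM in nuclei against 80.2 CPM in whole sperm, and Sil1, which serves Hspa5, at 27.5 and 107 CPM in nuclei against 47.2 CPM in whole sperm. Bag4 had 12 and 79 counts in nuclei against 96 in whole sperm, and Bag2 had 0 and 66 counts in nuclei against 123 in whole sperm, so the nuclei libraries were far apart for both. The HSP90 co-chaperones numbered 26, of which 21 were tested, 10 above 0 and 11 below (median -0.27), with none called. Chordc1 had 332 and 399 counts in nuclei (63.4 and 59.8 CPM) and 3060 in whole sperm (353 CPM; log2 -2.52, SE 0.73, edgeR adjusted p = 0.152), with nuclei libraries only 1.06-fold apart. Unc45a, a myosin and HSP90 co-chaperone, was at 88.4 and 281 CPM in nuclei against 50.6 CPM in whole sperm, and Fkbp5 and St13 had whole-sperm levels between those of the nuclei libraries.

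Of 7 heat shock factor genes and relatives 4 were tested and none was called. Hsf1, the main stress-response factor, did not pass the filter, with 13 and 0 counts in nuclei against 1 in whole sperm. Hsf5, a testis member, had 33 and 176 counts in nuclei against 126 in whole sperm, and Hsbp1, Hsf2bp and Hsf2 had between 2 and 107 counts in nuclei and between 46 and 137 in whole sperm. Of 11 genes listed as small heat shock proteins 7 were tested, 4 above 0 and 3 below (median 0.45), with none called. Odf1, a small heat shock protein of the sperm tail's outer dense fibres, was at 261 and 385 CPM in nuclei against 173 CPM in whole sperm, and the testis gene Hspb9 at 43.5 and 86.0 CPM in nuclei against 35.5 CPM in whole sperm. Hspb8 had 5 and 9 counts in nuclei against 43 in whole sperm, and Hspb11 had 0 counts in both nuclei libraries and 37 in whole sperm. All 11 chaperonin genes were tested, 3 above 0 and 8 below (median -0.63), and none was called. Cct6b, the testis chaperonin subunit, was at 67.7 and 133 CPM in nuclei against 49.1 CPM in whole sperm. Cct4, a widely expressed subunit, was at 54.2 and 40.2 CPM in nuclei against 103 CPM in whole sperm. Cct2 was at 31.3 and 43.5 CPM in nuclei against 109 CPM in whole sperm, and Cct8 at 22.7 and 43.0 CPM in nuclei against 28.6 CPM in whole sperm.

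**Figure D5:**
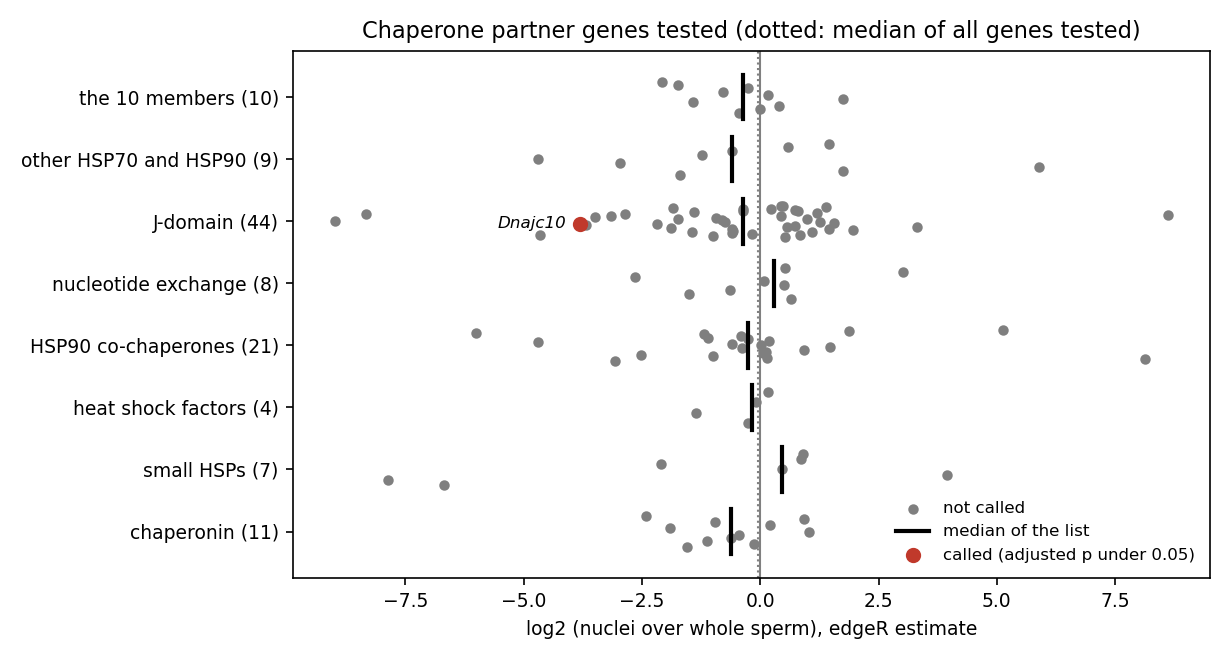
Log2 fold change of nuclei over whole sperm (edgeR estimate) for the 10 members and for the tested genes of 7 partner lists, with the number tested in brackets, a black bar at each list's median and a dotted line at the median of all genes tested. Dnajc10 (-3.80), in red, is the only gene called; values far from 0 belong mostly to genes with few counts.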

How the data were processed

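RNA counts were measured in 2 preparations of sperm nuclei and 1 of whole sperm. The authors deposited raw counts per gene and assembled region, and RPKM values per preparation, each column holding 1 preparation. The submitters' processing notes name build mm10 and, among the tools, HTSeq, DESeq2, bedtools, TopHat2 2.0.12, Cufflinks 2.1.1 and SAMtools 0.1.19, with their roles and the strand setting not given in the sources used here. Adjusted whole-sperm values deposited by the authors were treated as a score: in 25610 of 25610 rows this equalled the whole-sperm count less the nuclei mean, not below 0 (tolerance 0.5). The whole-sperm table lists 0 reads as not uniquely aligned, 34.4% of its file total outside features and 1.97% as ambiguous, all left out.

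Counts were tested with edgeR 4.0.16 (R 4.3.3; TMM, filterByExpr, quasi-likelihood, 1 residual degree of freedom, Benjamini-Hochberg threshold 0.05) over 16720 of 25610 features; the script was tested on simulated data. Whole sperm has no replicate and is assumed to vary like nuclei, so p-values measure only how far the nuclei preparations differ, as pooled across genes, and that spread may be technical. Each edgeR SE is the absolute log2 fold change over the square root of the F statistic, so it reflects the same pooled spread. PCR copies were not identified. RPKM values were tested with limma 3.58.1 on log2(RPKM + 0.1), with a filter at 0.1 RPKM; fold changes on this scale understate the change of low genes. Alternatives were other scalings, among them the 23 spike-ins shared by all tables (the amount added is not known here, so equal amounts are assumed), other filters, DESeq2 1.42.0, and each nuclei library alone. Shares and ratios have exact Clopper-Pearson 95% intervals. Motifs and windows come from RefSeq promoters, of which 6 of 10 members had one, and shared 50-base stretches from GENCODE vM21 transcripts. The members and lists were chosen with earlier results of these data known. Named genes are all members and, of each partner list, every called gene and the 4 with the highest mean CPM; Hsf1 was named after its values were seen.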

Additional observations from a re-analysis of the deposited data

How the results depend on the processing

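No paired analysis was possible because whole sperm has 1 preparation, so the groups share only 1 replicate number. The count of genes called was 20 and stayed within 1.5 times of that under DESeq2 size factors, library size alone, leaving out the 10 most abundant features and no filter. It was 528 under spike-in scaling (1 higher, 527 lower), 148 with DESeq2 (108 higher, 40 lower), 0 of 6737 genes with edgeR at a mean of at least 10 CPM (615 at an unadjusted p under 0.05) and 0 of 14989 with limma on RPKM (1741 at an unadjusted p under 0.05). On RPKM a pseudocount of 1 and no filter also gave 0, with 2492 and 2609 at an unadjusted p under 0.05. The cause of these shifts was not tested.

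Hspa1l, Hspa4l, Hspa1b, Hspa4, Hspa8, Hspa9 and Hsp90aa1 kept their direction under every setting that could test them. Hspa2 reversed under spike-in scaling (log2 -1.27) and on RPKM (-0.50). Hspa1a reversed under spike-in scaling (-1.03), and nuclei 1 and 2 alone gave -0.0025 and 0.72. Hsp90ab1 reversed under library size alone (-0.093), spike-in scaling (-1.43), testing without a filter (-0.0013), a minimum mean of 10 CPM (-0.057) and RPKM (-0.81), and nuclei 1 and 2 alone gave 0.22 and -0.26. The adjusted p of Hspa8 ran from 0.000409 under spike-in scaling to 0.657 under library size alone. At a mean of at least 10 CPM, Hspa1a and Hspa1b were not tested. Spike-in scaling moved the median log2 of the testis forms to -1.27, that of the other members to -2.21 and that of all genes tested to -1.48; each nuclei library alone gave 0.04 and 0.29 for the testis forms and -0.55 and -1.33 for the others.

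The testis forms' share was 46.0% and 64.0% in nuclei and 26.4% in whole sperm over HSP70 members only, and 22.3% and 32.3% in nuclei and 13.5% in whole sperm by summed RPKM. Without Hspa8 it was 31.9% and 43.3% in nuclei and 29.4% in whole sperm. In each of these the nuclei shares were above that of whole sperm. Depth limits Hspa1a and Hspa1b most: 3 counts equal 0.547 and 0.451 CPM in nuclei against 0.361 CPM in whole sperm.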
